A study of Homo sapiens with 12 samples.

Results

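The genes described here are 9 genes of fatty acid oxidation, ACSL1, ACSL3, CPT1A, CPT2, ACADVL, ACADM, HADHA, HADHB and ECI2, taken by symbol from the 26475 gene symbols of an RNA-seq table. All 9 were found, and all 9 were among the 14582 genes that passed the filter on low counts. The table holds 12 libraries of MIAPaCa2, an established human pancreatic ductal adenocarcinoma (PDAC) cell line, in 4 groups of 3: parental cells given vehicle or oxamate, and oxamate-resistant cells given vehicle or oxamate. Oxamate is a pyruvate analogue that inhibits lactate dehydrogenase A (LDHA), and the labels name the treatments as untreated and LDHA inhibitor. The oxamate-resistant cells are the survivors of prolonged growth of this same line in sodium oxamate, so the comparison of lines rests on 1 resistant population from 1 cell line, and the dose and duration of the treatment before RNA extraction are not given in the sources used here. No label says that the replicates were separate cultures, so the p-values below measure the spread between these samples, which may be technical. A lower level in such bulk RNA cannot be told apart from fewer cells that carry the transcript.

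Long-chain fatty acids are burned in mitochondria by a short series of proteins. Acyl-CoA synthetases such as ACSL1 and ACSL3 join the fatty acid to coenzyme A, CPT1A in the outer mitochondrial membrane exchanges the coenzyme A for carnitine, which is the step that malonyl-CoA inhibits, and CPT2 on the inner membrane reverses the exchange. Inside the matrix, ACADVL and ACADM, the very-long-chain and medium-chain acyl-CoA dehydrogenases, start each round of beta-oxidation. HADHA and HADHB are the alpha and beta subunits of the mitochondrial trifunctional protein, which carries out the remaining steps for long chains, and ECI2 is an enoyl-CoA isomerase that handles double bonds of unsaturated fatty acids. Many of these genes are textbook targets of the PPAR nuclear receptors.

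In GENCODE release 29 on GRCh38, ACSL1 lies on chromosome 4 (184755595 to 184826818, minus strand) and ACSL3 on chromosome 2 (222860934 to 222944639, plus strand). CPT1A is on chromosome 11 (68754620 to 68844410, minus strand), ACADVL on chromosome 17 (7217125 to 7225273, plus strand), ACADM on chromosome 1 (75724347 to 75787575, plus strand) and ECI2 on chromosome 6 (4115689 to 4135597, minus strand). The positions of CPT2 and of the HADHA and HADHB pair are given with their sequences below. The antisense RNA AL136309.4, for which the table has no row, covers 7.66% of the exon bases of ECI2, and 76 bases are shared with C6orf201, which did not exceed 0.403 CPM in any library.

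The libraries held 46698729 to 114222169 expected counts each, and every parental library was deeper than every oxamate-resistant one. A count of 3, used as a floor for levels too low to measure, corresponded to 0.0283 to 0.0482 CPM in vehicle-treated parental cells and to 0.0435 to 0.0581 CPM in the other 3 groups, which covers counting error only. Levels are given in CPM, the count of a gene relative to its library after TMM scaling. The 9 genes lay far above that floor, with between 1002 (CPT2) and 54981 (ACADVL) expected counts in a library. The markers of the line, KRT8, KRT18 and VIM, were expressed in every library, at 671 CPM or more, and all 3 were called lower in resistant cells. CDKN2A and MTAP were at 0 throughout, and the leukocyte gene CD3E was at 0, while PTPRC, DCN and LUM did not exceed 0.0504 CPM in any library. Of 9 genes listed for other cell types COL1A2 was the exception, at 693 to 950.0 CPM, with COL1A1 at 0.901 to 2.03, CDH5 at 0.386 to 0.957, PECAM1 at 0.0336 to 0.159 and LYZ at 17.3 to 25.7 CPM, and the summed list moved with treatment (720.2 to 738 and 956 to 977 CPM in parental cells after vehicle and oxamate, 728 to 762 and 803 to 821 CPM in resistant cells), whose part in the results was not tested. LDHA itself was transcribed in all groups, at 1074 ± 13.6 and 1647 ± 87.6 CPM (SD, n = 3) in vehicle- and oxamate-treated parental cells and at 960.0 ± 13.8 and 1213 ± 13.4 CPM in the resistant cells. The summed level of 4 nuclear-retained RNAs (MALAT1, NEAT1, KCNQ1OT1 and MIAT) ranged from 321 to 357 CPM in vehicle-treated parental cells, 544 to 1187 CPM in oxamate-treated parental cells, 534 to 1112 CPM in vehicle-treated resistant cells and 1080 to 1407 CPM in oxamate-treated resistant cells. It thus moved with both cell line and treatment, and its part in the results below was not tested. Replicate 3 stood apart in oxamate-treated parental cells (1187 CPM against 557 or less) and in vehicle-treated resistant cells (1112 CPM against 583 or less). Leaving out either library changed the number of the 9 genes called in a comparison by at most 1.

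**Figure D1:**
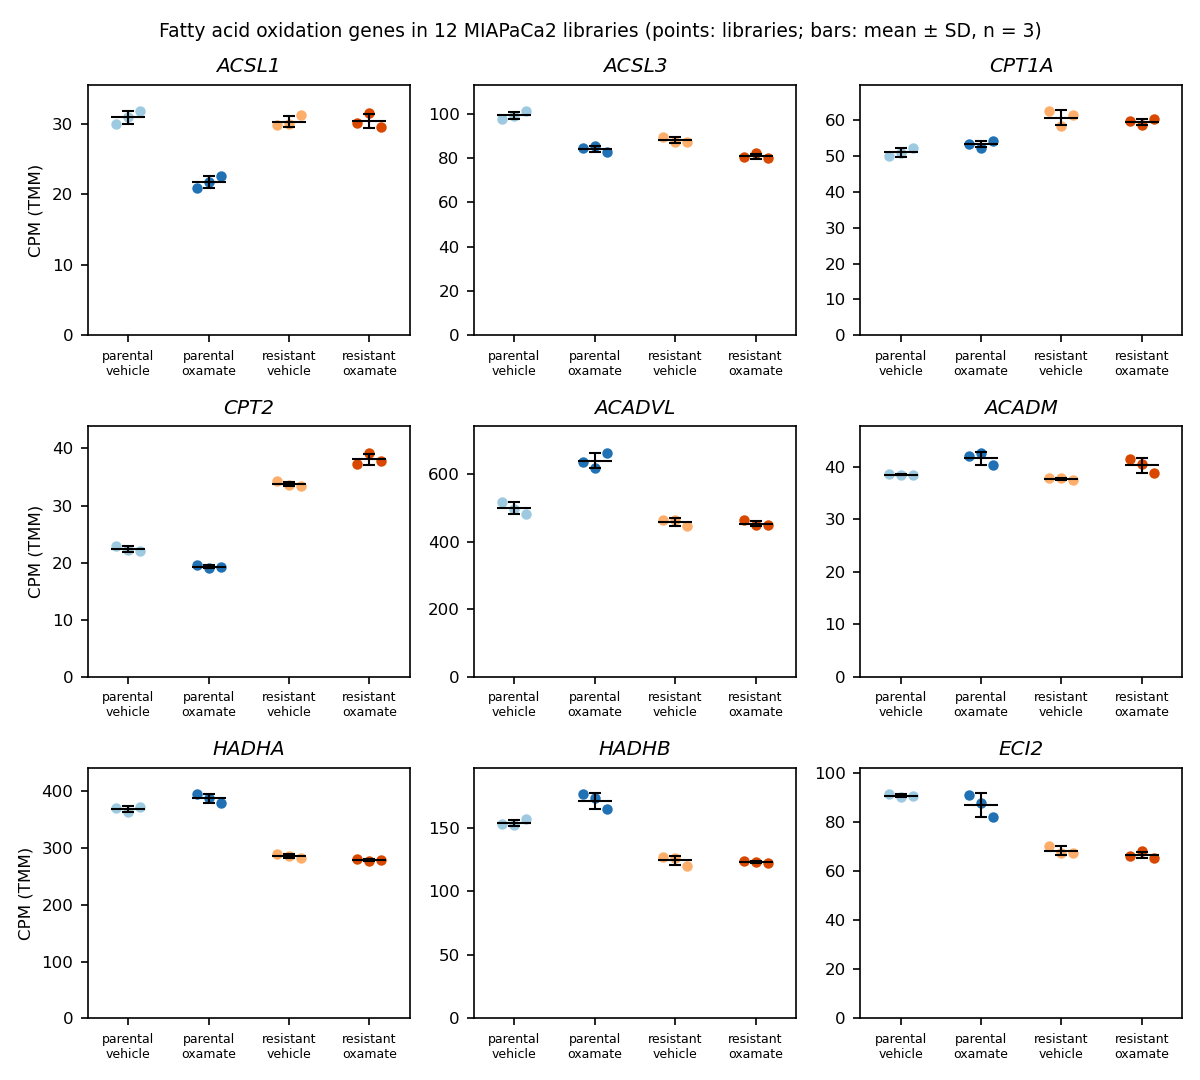
Level of each gene in each of the 12 libraries, with the vertical axis in CPM from 0 and the 4 groups along the horizontal axis (points, libraries; bars, mean ± SD, n = 3). CPT2 stands higher in both resistant groups, HADHA, HADHB and ECI2 stand lower there, and ACSL1 has its lowest mean in oxamate-treated parental cells (21.8 CPM, against 30.3 to 30.9 CPM in the other groups).

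Transcripts of ACADVL, the trifunctional protein and ECI2 were more abundant than those for activation and the carnitine shuttle. Different genes are compared here in CPM per kilobase of exon, with the exons of all coding transcripts of a gene joined. The length of the transcripts expressed was not measured, so the scale is approximate. On it ACADVL was highest in every group, at 202 ± 7.11 CPM per kilobase (SD, n = 3) in vehicle-treated parental cells. HADHA, HADHB and ECI2 followed at 117, 68.8 and 56.5 CPM per kilobase. ACSL3 and ACADM came next at 17.5 and 14.1 CPM per kilobase, then CPT1A at 8.81, CPT2 at 7.04 and ACSL1 at 5.80 CPM per kilobase. The first 4 places and the last were the same in all 4 groups. ACADM and ACSL3 overlapped in both oxamate groups, where their libraries spanned 14.7 to 15.6 against 14.6 to 15.02 CPM per kilobase in parental cells and 14.2 to 15.2 against 14.1 to 14.5 in resistant cells. CPT1A exceeded CPT2 in all parental libraries. In vehicle-treated resistant cells CPT2, at 10.5 to 10.8, lay within the range of CPT1A, at 10.1 to 10.8 CPM per kilobase. In oxamate-treated resistant cells CPT2 was the higher, at 11.7 to 12.3 against 10.1 to 10.4. This order rests on exon lengths of 5787 bases for CPT1A and 3180 for CPT2. In CPM alone CPT1A was the higher in every group, at 59.5 against 38.1 in oxamate-treated resistant cells.

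The first question was how the resistant line differed from its parent without drug. CPT2 and CPT1A, the carnitine acyltransferases, were higher in the vehicle-treated resistant cells, while both subunits of the trifunctional protein, ECI2, ACADVL and ACSL3 were lower, and ACSL1 and ACADM did not pass the test. A call is a Benjamini-Hochberg adjusted p under 0.05 over all 14582 genes in edgeR's quasi-likelihood test. In these terms 7 of the 9 genes differed, 2 higher and 5 lower, and 75.7% of all genes tested did so (38.4% higher and 37.3% lower), so the number of genes called is near that of genes in general.

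CPT2 showed the largest difference of the 9. Its 3 vehicle-treated parental libraries stood at 22.9, 22.3 and 22.0 CPM and its 3 vehicle-treated resistant libraries at 34.2, 33.6 and 33.5 CPM. The groups were well apart, with each resistant library above every parental one. Between these groups, 77.6% of all genes tested did not overlap, in one direction or the other. The log2 fold change was 0.59 ± 0.032 (SE, edgeR adjusted p = 1.07e-10), a fold change of 1.51. CPT1A, the rate-limiting enzyme of the pathway, differed less, with 49.8, 50.9 and 52.2 CPM in parental and 62.4, 58.3 and 61.3 CPM in resistant cells. Its groups did not overlap either, and the log2 fold change was 0.25 ± 0.030 (SE, edgeR adjusted p = 1.42e-06).

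CPT2 lies on chromosome 1 (GENCODE release 29, GRCh38, 53196429 to 53214197, plus strand). Its exons share 524 bases (16.48%) with the antisense RNA AL606760.2, for which the table has no row, and 99 bases (3.11%) with the opposite-strand gene C1orf123. Whether the libraries kept strand is not given in the sources used here, so reads in the shared bases cannot be assigned. C1orf123 moved the other way between the vehicle-treated lines, from 30.8 ± 0.387 to 25.6 ± 0.438 CPM (SD, n = 3, log2 fold change -0.27, edgeR adjusted p = 1.61e-06). The 250 bases before the CPT2 start (RefSeq, GRCh38.p14, chr1:53196574-53196823, plus strand) are shown because CPT2 differed most, and capitals mark matches to CCGGAAG, the core of ETS-family binding sites, on either strand:
CPT2: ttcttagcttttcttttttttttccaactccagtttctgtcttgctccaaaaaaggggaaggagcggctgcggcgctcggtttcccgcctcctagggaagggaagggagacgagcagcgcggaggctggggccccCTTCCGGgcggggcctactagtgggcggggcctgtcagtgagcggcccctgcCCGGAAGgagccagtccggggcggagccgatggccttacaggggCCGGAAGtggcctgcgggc

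There were 3 such matches, beginning 115, 63 and 19 bases before the start, the first of them on the opposite strand and overlapping a GC box (GGGCGG). At least 1 match was present in 8.52% of 35116 RefSeq windows of this length, at least 3 in 0.171%, and none of the other 8 genes had one. None of the 9 genes' windows held AGGTCA, to which PPAR and other nuclear receptors bind (12.1% of all windows), TCAAGGTCA, the longer form bound by ERR receptors (0.319%), the E-box CACGTG (6.34%), the CRE TGACGTCA (1.65%) or the NRF1 motif (5.07%), and CCAAT was in windows of ACSL1 and ACSL3 (32.0%). This says only that these letters are not in these stretches, and the RefSeq window of CPT1A begins 2346 bases from the nearest coding transcript start of GENCODE. A match is a description of sequence, not of binding.

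HADHA and HADHB were lower together in resistant cells. HADHA stood at 369.9, 363 and 373 CPM in vehicle-treated parental cells and at 290.3, 286 and 283 CPM in vehicle-treated resistant cells, and HADHB at 153, 152 and 156 CPM and at 127, 126 and 120.2 CPM. All resistant libraries lay below all parental libraries for both subunits. The log2 fold changes were -0.36 ± 0.023 (SE, edgeR adjusted p = 8.20e-10) for HADHA and -0.31 ± 0.029 (SE, edgeR adjusted p = 8.57e-08) for HADHB. The subunits are encoded head to head on chromosome 2, HADHA on the minus strand from 26190635 to 26244726 and HADHB on the plus strand from 26243170 to 26290468 (GENCODE release 29), and their RefSeq start sites lie 307 bases apart. The GENCODE spans of the 2 genes overlap, and the stretch meant here is that between the RefSeq starts. Because the pair moved alike, this stretch is shown as the 250 bases before the HADHB start (chr2:26244689-26244938, plus strand of GRCh38.p14). It is printed without capitals because no motif other than the GC box matched:
HADHB: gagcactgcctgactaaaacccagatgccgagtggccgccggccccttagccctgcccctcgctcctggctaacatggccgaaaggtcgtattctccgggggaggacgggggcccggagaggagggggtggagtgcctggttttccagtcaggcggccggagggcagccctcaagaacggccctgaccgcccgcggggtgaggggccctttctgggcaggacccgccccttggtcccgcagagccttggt

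The GC box, counted on both strands, was in at least 1 window of 8 of the 9 genes and in 42.6% of all windows. ACSL1 had 5 windows and ECI2 and ACADVL 2 each, so the count of genes and the share of windows are unlike measures. The only box in the HADHA window lies where it overlaps the HADHB window and was counted for both genes. Processed pseudogenes of HADHA are annotated in GENCODE as HADHAP1 and HADHAP2, and the table has no row for either. All HADHA and HADHB counts were whole numbers, whereas those of CPT2 were not whole in 10 libraries and those of ACADVL and ECI2 in all 12, which is the mark left when RSEM divides reads between genes.

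ECI2 was at 91.2, 90.2 and 90.7 CPM in vehicle-treated parental and at 70.2, 67.4 and 67.3 CPM in vehicle-treated resistant cells. Its groups were apart by more than the spread within either, and the log2 fold change was -0.41 ± 0.034 (SE, edgeR adjusted p = 2.23e-08). ACADVL differed by less, with parental libraries at 484 to 518 CPM and resistant libraries at 446 to 466 CPM (log2 fold change -0.12 ± 0.031, SE, edgeR adjusted p = 0.00225). ACSL3, the synthetase tied to the endoplasmic reticulum and lipid droplets, went from 97.7 to 101 CPM in parental libraries to 87.3 to 89.5 CPM in resistant ones (log2 fold change -0.17 ± 0.025, SE, edgeR adjusted p = 1.07e-05). ACSL1 had a log2 fold change of -0.03 ± 0.038 (SE, edgeR adjusted p = 0.543) and ACADM of -0.03 ± 0.031 (SE, edgeR adjusted p = 0.384). With a fold change over 1.5 and an unadjusted p under 0.05 as the threshold, CPT2 was the 1 gene of the 9 that passed, against 23.4% of all genes tested.

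These directions are relative to genes in general. When libraries were scaled by their size alone and not by TMM, the overall median shifted by 0.22 (log2) and the calls over all genes went from 5602 higher and 5436 lower to 8540 and 2769. In that fit CPT2 and CPT1A were further up (0.81 and 0.47), HADHA, HADHB and ECI2 were still lower (-0.15, -0.09 and -0.19, each called), ACADVL was called in the opposite direction at 0.10 (edgeR adjusted p = 0.0141), and ACSL3 turned to 0.05 and was no longer called. ACSL1 and ACADM gained calls at 0.19 each (edgeR adjusted p = 0.000640 and 2.07e-05), so that 5 of the 9 genes were higher and 3 lower.

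**Figure D2:**
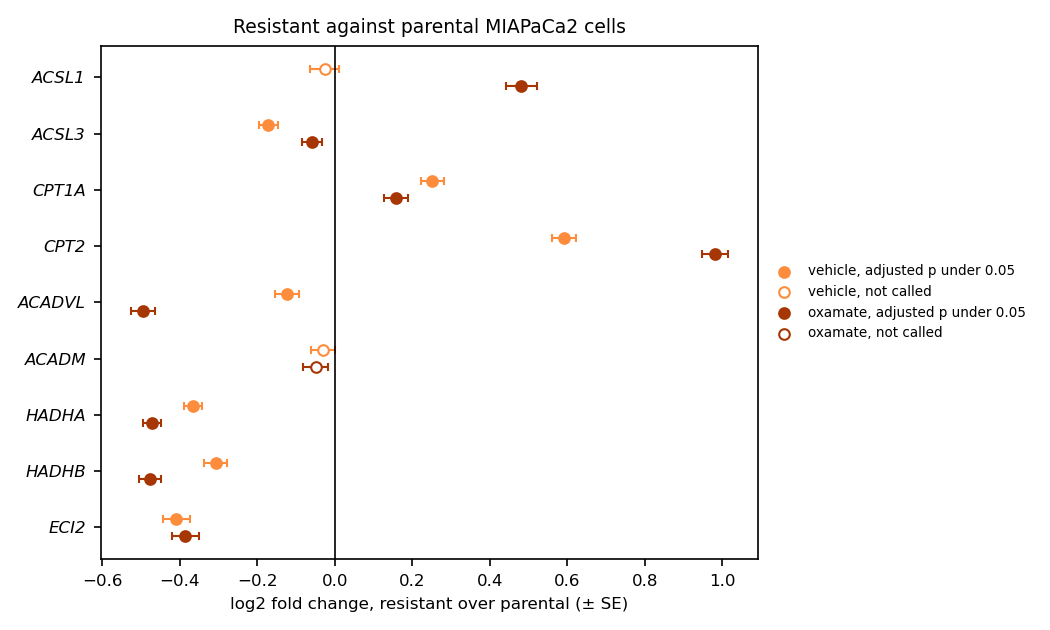
Log2 fold change of each gene in resistant over parental cells (horizontal axis; points with ± SE), for cells given vehicle and cells given oxamate, with filled points where the adjusted p was under 0.05. CPT2 lies farthest to the right, at 0.59 and 0.98, and ACADVL, HADHA, HADHB and ECI2 lie left of 0 in both.

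When both lines were given oxamate, CPT2, ACSL1 and CPT1A were higher in the resistant cells, and ACADVL, HADHA, HADHB and ECI2 were lower. In total 8 of the 9 genes differed, 3 higher and 5 lower, where 80.3% of all genes tested did (40.6% higher and 39.7% lower). CPT2 was at 19.6, 19.1 and 19.2 CPM in oxamate-treated parental and at 37.4, 39.2 and 37.8 CPM in oxamate-treated resistant cells. No other gene of the 9 had groups so far apart, and the log2 fold change was 0.98 ± 0.033 (SE, edgeR adjusted p = 1.98e-13), a fold change of 1.98. CPT1A stood at 53.4, 52.3 and 54.2 CPM against 59.6, 58.5 and 60.3 CPM (log2 fold change 0.16 ± 0.031, SE, edgeR adjusted p = 0.000206).

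ACSL1, which did not differ between the vehicle-treated lines beyond its error, stood at 20.9, 21.8 and 22.6 CPM in parental and at 30.2, 31.5 and 29.5 CPM in resistant cells under oxamate (log2 fold change 0.48 ± 0.040, SE, edgeR adjusted p = 1.15e-08). ACADVL was at 638, 619 and 664 CPM in parental and at 464, 449 and 450.4 CPM in resistant cells. Its log2 fold change was -0.50 ± 0.032 (SE, edgeR adjusted p = 4.17e-10). HADHA, at 379 to 395 CPM in parental and 277 to 281 CPM in resistant libraries, had a log2 fold change of -0.47 ± 0.023 (SE, edgeR adjusted p = 1.87e-11). HADHB, at 164 to 176 against 122 to 124 CPM, had -0.48 ± 0.029 (SE, edgeR adjusted p = 2.52e-10), and ECI2, at 81.8 to 91.1 against 65.4 to 68.0 CPM, had -0.39 ± 0.035 (SE, edgeR adjusted p = 3.61e-08). In all of these the 2 lines did not overlap, which also held for 81.2% of all genes tested. ACADM again did not pass the test (-0.05 ± 0.032, SE, edgeR adjusted p = 0.175).

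ACSL3 passed narrowly, at -0.06 ± 0.025 (SE, edgeR adjusted p = 0.0459), and the call was kept in 6 of 21 alternative analyses, with adjusted p from 5.33e-08, where library size alone turned it to 0.27, to 0.289. Under library size alone, which shifted the overall median by 0.32 (9133 genes higher and 2819 lower, against 5923 and 5785), CPT2, ACSL1 and CPT1A were at 1.31, 0.81 and 0.48, ACADM gained a call at 0.28 (edgeR adjusted p = 3.19e-07), ACADVL, HADHA and HADHB were at -0.17, -0.15 and -0.15, and ECI2, at -0.06, was no longer called (edgeR adjusted p = 0.0759). CPT2 was again the 1 gene past a fold change of 1.5, against 34.3% of all genes tested.

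In parental cells, oxamate lowered both synthetases and CPT2 and raised ACADVL, with smaller rises of HADHB, ACADM and HADHA. These 7 of 9 genes were called, 4 higher and 3 lower, beside 58.7% of all genes tested (28.3% higher and 30.4% lower). ACSL1 fell from 30.1, 30.9 and 31.8 CPM to the 20.9, 21.8 and 22.6 CPM given above. The groups did not overlap (log2 fold change -0.50 ± 0.039, SE, edgeR adjusted p = 2.65e-08), which held for 61.5% of all genes tested in this comparison. ACSL3 fell from 97.7, 98.9 and 101 CPM to 84.7, 85.3 and 82.7 CPM (log2 fold change -0.24 ± 0.025, SE, edgeR adjusted p = 7.06e-07). CPT2 fell from 22.0 to 22.9 CPM to 19.1 to 19.6 CPM (log2 fold change -0.22 ± 0.033, SE, edgeR adjusted p = 4.41e-05).

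ACADVL rose from 518, 497 and 484 CPM to 638, 619 and 664 CPM, with no overlap (log2 fold change 0.36 ± 0.031, SE, edgeR adjusted p = 1.10e-07). The exons of ACADVL on chromosome 17 share 85 bases with DLG4 on the opposite strand, and DLG4 rose as well, from 102 ± 1.57 to 145 ± 3.67 CPM (SD, n = 3, log2 fold change 0.50, edgeR adjusted p = 5.29e-10). The part of shared reads in the ACADVL value was not tested, and the shared bases are 3.43% of the ACADVL exons. HADHB rose from 152 to 156 CPM to 164 to 176 CPM (log2 fold change 0.15 ± 0.029, SE, edgeR adjusted p = 0.000231). ACADM moved from 38.5 to 38.6 CPM to 40.3 to 42.7 CPM (log2 fold change 0.11 ± 0.031, SE, edgeR adjusted p = 0.00614), and HADHA from 363 to 373 CPM to 379 to 395 CPM (log2 fold change 0.07 ± 0.023, SE, edgeR adjusted p = 0.0137).

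The smallest of these calls depended on the analysis: HADHA was at 0.07 with no filter on low counts (edgeR adjusted p = 0.0515), at 0.06 without vehicle-treated replicate 2 or oxamate-treated replicate 1, and at -0.003 with library size alone, none of them called. With library size alone, ACADM was at 0.04 and not called and ECI2 gained a call at -0.14 (edgeR adjusted p = 0.000833), and over all genes 2853 were higher and 5922 lower, against 4124 and 4439. CPT1A (0.07 ± 0.030, SE, edgeR adjusted p = 0.0723) and ECI2 (-0.06 ± 0.034, SE, edgeR adjusted p = 0.125) did not pass the test. None of the 9 genes passed a fold change of 1.5, against 9.88% of all genes tested.

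In oxamate-resistant cells the response was small. CPT2 rose and ACSL3 fell, and the other 7 genes did not pass the test, so that 2 of 9 were called where 21.5% of all genes were (9.01% higher and 12.5% lower). CPT2 went from 34.2, 33.6 and 33.5 CPM after vehicle to 37.4, 39.2 and 37.8 CPM after oxamate, the opposite direction to that in parental cells. Every oxamate library exceeded every vehicle library (log2 fold change 0.17 ± 0.032, SE, edgeR adjusted p = 0.00142). In this comparison 41% of all genes tested did not overlap, in one direction or the other. ACSL3 went from 89.5, 87.3 and 87.4 CPM to 80.6, 82.1 and 79.9 CPM (log2 fold change -0.12 ± 0.025, SE, edgeR adjusted p = 0.00341). ACADM was at 37.9, 37.9 and 37.5 CPM after vehicle and at 41.6, 40.5 and 38.8 CPM after oxamate, a log2 fold change of 0.09 ± 0.032 (SE, edgeR adjusted p = 0.0501) that fell just short of a call and passed in 6 of 21 alternative analyses. Among these was library size alone (0.12, edgeR adjusted p = 0.00857), where 1753 of all genes were higher and 1179 lower, against 1314 and 1825. ACSL1 was at 29.8 to 31.2 CPM after vehicle and 29.5 to 31.5 CPM after oxamate, and the groups overlapped (log2 fold change 0.003 ± 0.039, SE, edgeR adjusted p = 0.965). The other 5 genes had log2 fold changes between -0.04 and -0.01. A fold change of 1.5 was reached by none of the 9 and by 2.50% of all genes tested.

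**Figure D3:**
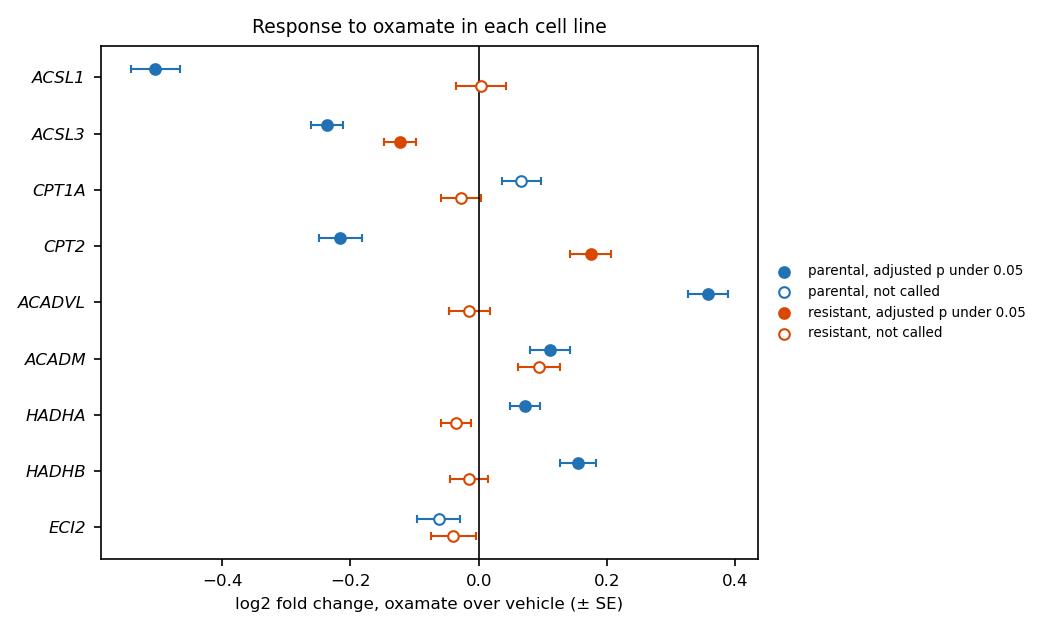
Log2 fold change of each gene in oxamate- over vehicle-treated cells (horizontal axis; points with ± SE), in parental and resistant cells, with filled points where the adjusted p was under 0.05. CPT2 lies on opposite sides of 0 in the 2 lines (-0.22 and 0.17), and ACSL1 and ACADVL lie at -0.50 and 0.36 in parental cells against 0.003 and -0.01 in resistant cells.

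The responses of the lines were then compared with each other through an interaction contrast (response in resistant minus response in parental cells). This comparison uses the same libraries as the others, so its values are not independent of them. The responses differed for 6 of the 9 genes, 3 in each direction, beside 44.2% of all genes tested (22.7% higher and 21.4% lower). ACSL1 (0.51 ± 0.055, SE, edgeR adjusted p = 2.56e-06), CPT2 (0.39 ± 0.046, SE, edgeR adjusted p = 5.87e-06) and ACSL3 (0.11 ± 0.035, SE, edgeR adjusted p = 0.0160) responded more positively in resistant cells. ACADVL (-0.37 ± 0.045, SE, edgeR adjusted p = 6.95e-06), HADHB (-0.17 ± 0.041, SE, edgeR adjusted p = 0.00313) and HADHA (-0.11 ± 0.033, SE, edgeR adjusted p = 0.0147) responded more negatively. CPT1A, ACADM and ECI2 did not pass the test, with differences of -0.09 ± 0.043, -0.02 ± 0.045 and 0.02 ± 0.049 (SE). The opposite-strand gene DLG4 had a difference of -0.70 (edgeR adjusted p = 3.03e-09), in the direction of ACADVL. With library size alone, which shifted the overall median by 0.10 (5050 genes higher and 1756 lower, against 3313 and 3125), HADHB at -0.06 and HADHA at -0.001 were no longer called and ECI2 gained a call at 0.13 (edgeR adjusted p = 0.0206), which left 4 of the 9 genes higher and 1 lower. No gene of the 9 had a difference over 1.5-fold, against 8.48% of all genes tested.

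Ratios between genes of the same library do not depend on how libraries are scaled. The ratio of CPT2 to HADHA, in CPM per kilobase, was 0.0612, 0.0606 and 0.0581 in vehicle-treated parental and 0.116, 0.116 and 0.117 in vehicle-treated resistant cells. Under oxamate it was 0.0490, 0.0484 and 0.0501 in parental and 0.131, 0.140 and 0.133 in resistant cells. The 4 groups did not overlap, and how many other gene pairs do so was not measured. Of single genes, 77.6% and 81.2% did not overlap between the lines after vehicle and under oxamate. Between the treatments, 61.5% did not in parental and 41% in resistant cells. The ratio of CPT2 to HADHA was highest in resistant cells under oxamate and lowest in parental cells under oxamate. CPT2 to CPT1A followed the same order, with means of 0.800 ± 0.036 and 0.659 ± 0.011 (SD, n = 3) in parental cells after vehicle and oxamate and of 1.01 ± 0.031 and 1.17 ± 0.046 in resistant cells. The ratio of the trifunctional subunits, HADHA to HADHB, varied little, from 1.59 to 1.73 over the 12 libraries. Within this range vehicle-treated parental libraries stood highest, at 1.70 to 1.73 against 1.67 or less in every other library. The ratio of ECI2 to HADHA ranged from 0.422 to 0.485. ACADVL to ACADM was 17.0 ± 1.11 in oxamate-treated parental cells, 14.3 ± 0.493 in vehicle-treated parental cells, and 13.4 ± 0.242 and 12.5 ± 0.324 in resistant cells after vehicle and oxamate (SD, n = 3).

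**Figure D4:**
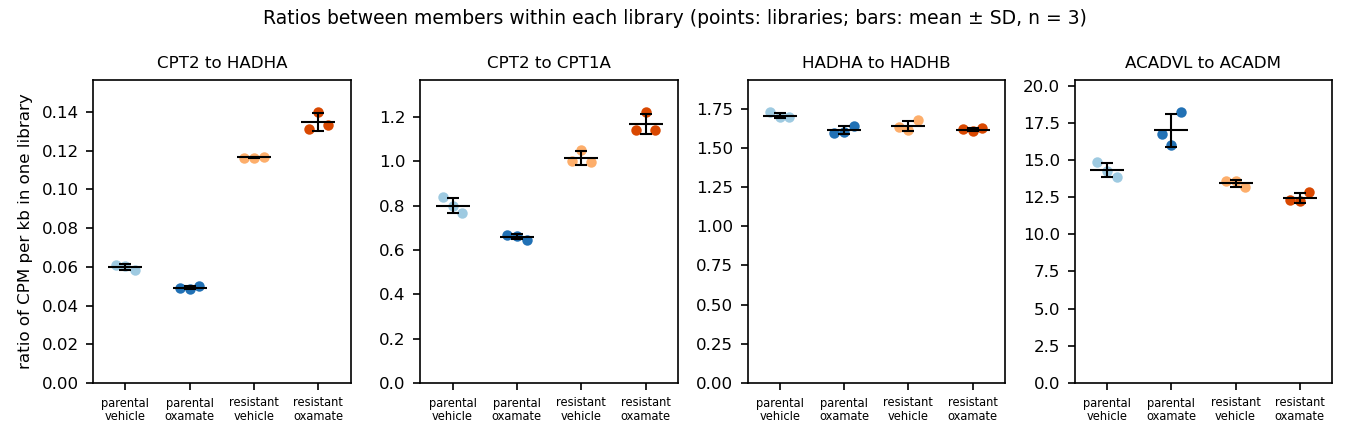
Ratio of CPM per kilobase between pairs of genes within each library (vertical axes from 0; points, libraries; bars, mean ± SD, n = 3). CPT2 to HADHA separates the 4 groups, with means of 0.0599 and 0.0492 in parental cells after vehicle and oxamate. In resistant cells the means are 0.116 and 0.135. How many other gene pairs separate the groups was not measured. HADHA to HADHB stays between 1.59 and 1.73, with the vehicle-treated parental libraries highest.

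Over the 12 libraries, the log2 CPM of HADHA and HADHB had a Pearson r of 0.985, HADHA and ECI2 of 0.964, and HADHA and CPT2 of -0.988. In a search of 9614 other genes whose mean reached 8 CPM, those most like HADHA were CAPN2 and PLP2 (r = 0.999 and 0.998) and CDCA5 (0.998), and those most like CPT1A were PHC1 (0.975), LIF (0.974) and DYNC2LI1 (0.973). These values describe 12 libraries that fall into 4 groups and share their scaling and depth differences, so they restate the differences between groups.

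The rest of the pathway was followed in 11 lists that hold none of the 9 genes, and each list is described by its counts of called genes and its median. Between the lines these stand beside 38.4% of all genes higher and 37.3% lower after vehicle (median 0.03), and 40.6% higher and 39.7% lower under oxamate (median 0.01). With library size alone 8540 of the 14582 genes were higher and 2769 lower after vehicle (median 0.24), and 9133 higher and 2819 lower under oxamate (median 0.34), so the counts of every list are given under both scalings. The list of other mitochondrial beta-oxidation enzymes also holds thioesterases (ACOT2, ACOT9 and ACOT13) and genes of propionyl-CoA breakdown (PCCA, PCCB, MCEE and MUT). Its counts are therefore not those of beta-oxidation enzymes alone. Of its 19 tested genes, 13 were called lower and 4 higher in vehicle-treated resistant than in vehicle-treated parental cells. Their median log2 fold change was -0.11 beside 0.03 for all genes. This direction rested on the scaling, since library size alone gave 6 lower and 10 higher and a median of 0.10 beside 0.24 for all genes. Under oxamate 15 were lower and 4 higher (median -0.27 beside 0.01), and library size alone gave 5 lower and 7 higher (median 0.06 beside 0.34). Past a 1.5-fold change there were ACAD8, an isobutyryl-CoA dehydrogenase of valine breakdown, at 7.86 ± 0.362 against 12.6 ± 0.186 CPM in resistant cells (log2 fold change 0.68, edgeR adjusted p = 1.78e-09), and ACAD11, at 133 ± 1.87 against 84.3 ± 0.961 CPM (-0.65, edgeR adjusted p = 1.24e-12).

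Electrons from the acyl-CoA dehydrogenases pass to the electron transfer flavoprotein, and of 6 tested genes for this route 1 was higher and 3 lower between the vehicle-treated lines (median -0.09), and 2 higher and 3 lower between the oxamate-treated lines (median -0.14). Library size alone gave 3 higher and 2 lower (median 0.13), and 4 higher and 2 lower (median 0.19). ETFB, a flavoprotein subunit, measured 134 ± 4.37 CPM in parental cells under oxamate and 81.3 ± 1.30 CPM in resistant cells (log2 fold change -0.72, edgeR adjusted p = 1.02e-10). SLC25A32, which carries folate and FAD into mitochondria, went the other way. It fell in parental cells after oxamate from 8.37 ± 0.488 to 5.24 ± 0.463 CPM (-0.68, edgeR adjusted p = 2.95e-07) and was at 12.5 ± 0.209 CPM in oxamate-treated resistant cells (1.26, edgeR adjusted p = 3.05e-11, between the lines).

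Around the carnitine shuttle, 4 of 8 tested genes were higher and 2 lower between the vehicle-treated lines (median 0.13), and 3 were higher and 3 lower under oxamate (median 0.08). Library size alone gave 7 higher and 1 lower (median 0.35), and 5 higher and 1 lower (median 0.41). CPT1B, the muscle form of CPT1, whose exons are also part of read-through transcripts with its neighbour CHKB, was at 1.83, 1.72 and 2.01 CPM in vehicle-treated parental and 3.49, 3.04 and 5.63 CPM in vehicle-treated resistant libraries (log2 fold change 1.14, edgeR adjusted p = 0.000609). The highest of these, replicate 3, is the library rich in nuclear-retained RNA. In oxamate-treated parental cells, CPT1B was at 1.61, 1.73 and 3.56 CPM, again highest in replicate 3, which also had the most nuclear-retained RNA of its group, and the part of that signal in the CPT1B value was not tested. CROT, the peroxisomal carnitine octanoyltransferase, was at 2.95 ± 0.279 against 5.78 ± 0.616 CPM under oxamate (0.98, edgeR adjusted p = 4.08e-08). For uptake and activation, 3 of 14 tested genes were higher and 8 lower after vehicle (median -0.22), and 3 higher and 9 lower under oxamate (median -0.39), against 3 higher and 6 lower (median -0.0007) and 5 higher and 6 lower (median -0.06) with library size alone. FABP5, a fatty acid binding protein, stood at 22.9 ± 0.235 CPM in parental and 11.4 ± 0.726 CPM in resistant cells after vehicle (-1.01, edgeR adjusted p = 4.70e-11), and the mitochondrial acetyl-CoA synthetase ACSS1 at 17.3 ± 0.562 and 9.86 ± 0.425 CPM (-0.81, edgeR adjusted p = 8.94e-10). ACBD3, an acyl-CoA binding protein of the Golgi, was at 104 ± 1.88 against 67.9 ± 0.921 CPM under oxamate (-0.62, edgeR adjusted p = 2.18e-11). SLC27A3 was low, at 0.659 to 0.896 CPM in vehicle-treated parental and 1.75 to 2.82 CPM in vehicle-treated resistant libraries (1.47, edgeR adjusted p = 5.77e-06). Like CPT1B, it was highest in replicate 3 of vehicle-treated resistant cells, at 2.82 CPM against 1.85 or less. In oxamate-treated parental cells replicate 3 was again highest, at 1.36 CPM against 0.983 or less. The part of nuclear-retained RNA in these SLC27A3 values was not tested. CD36, a fatty acid translocase, did not exceed 0.0358 CPM in parental libraries, under the floor. In resistant libraries CD36 was at 0.168 to 0.291 CPM.

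**Figure D5:**
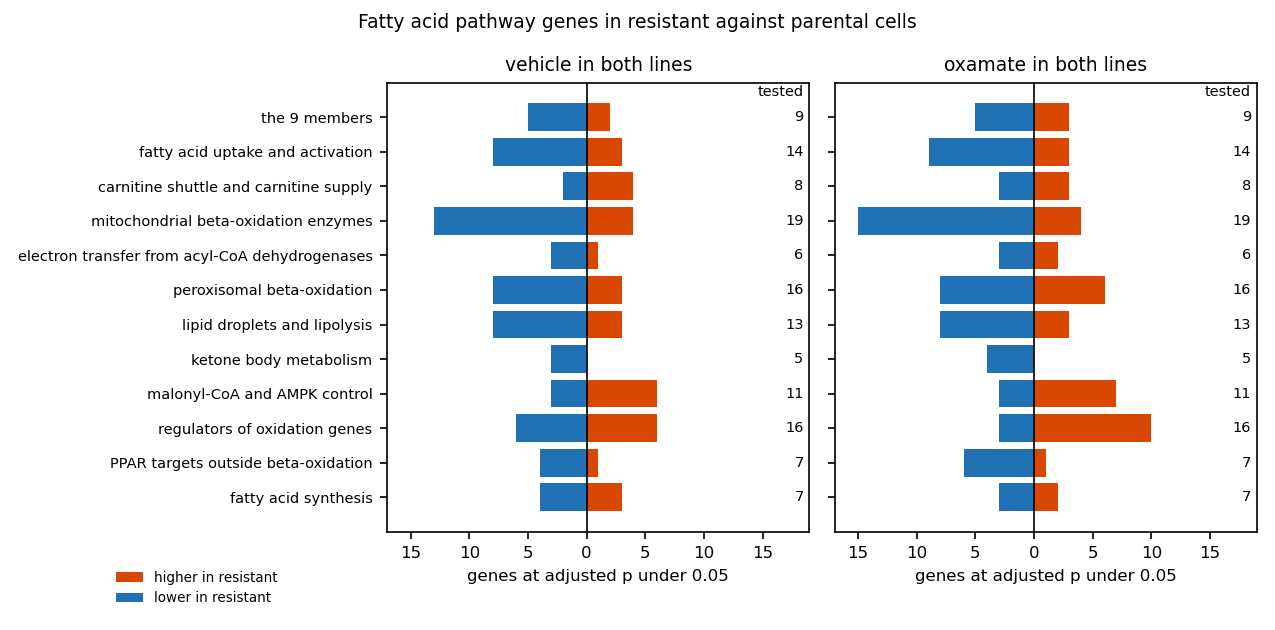
Number of genes of each list called higher (right of 0) or lower (left of 0) in resistant than in parental cells at an adjusted p under 0.05, for vehicle and for oxamate, with the number tested at the right edge. Of the 19 tested genes in the list of other mitochondrial beta-oxidation enzymes, 13 and 15 are lower under TMM scaling, and 6 and 5 with library size alone.

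Among peroxisomal beta-oxidation genes, 3 of 16 tested were higher and 8 lower after vehicle (median -0.06), and 6 higher and 8 lower under oxamate (median -0.12). This balance turned with library size alone, which gave 10 higher and 2 lower (median 0.16), and 11 higher and 3 lower (median 0.20). ACOX2, an acyl-CoA oxidase for branched chains, was at 10.2 ± 0.219 CPM in vehicle-treated parental and 3.85 ± 0.181 CPM in vehicle-treated resistant cells (log2 fold change -1.41, edgeR adjusted p = 1.66e-12). The other 2 of this list past a 1.5-fold change were higher in resistant cells under oxamate, the transporter ABCD3 at 15.6 ± 0.701 against 26.4 ± 0.506 CPM (0.76, edgeR adjusted p = 2.18e-11) and ACOX3 at 4.17 ± 0.331 against 6.86 ± 0.261 CPM (0.72, edgeR adjusted p = 1.62e-07). Ketone body genes had 0 higher and 3 lower of 5 tested after vehicle (median -0.26), and 0 higher and 4 lower under oxamate (median -0.45), BDH2 among them at 12.6 ± 0.702 against 8.30 ± 0.449 CPM (-0.60, edgeR adjusted p = 5.76e-08). Library size alone gave 2 higher and 2 lower (median -0.04), and 1 higher and 3 lower (median -0.13). Fatty acid synthesis genes were divided, with 3 of 7 higher and 4 lower after vehicle (median -0.11) and 2 higher and 3 lower under oxamate (median -0.04), whereas library size alone gave 4 higher and 1 lower (median 0.11), and 5 higher and 1 lower (median 0.29). ELOVL6, an elongase, was at 2.77 ± 0.133 against 5.19 ± 0.451 CPM after vehicle (0.91, edgeR adjusted p = 5.69e-07), and the desaturase SCD at 1983 ± 32.8 against 1280.3 ± 2.13 CPM under oxamate (-0.63, edgeR adjusted p = 2.22e-13).

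Genes of lipid droplets and lipolysis were lower more often than higher, 8 against 3 of 13 tested, both after vehicle (median -0.14) and under oxamate (median -0.40), while library size alone gave 2 lower and 7 higher after vehicle (median 0.08), and 5 lower and 5 higher under oxamate (median -0.08). PLIN2, which coats lipid droplets and is also in the list of PPAR targets, rose in parental cells after oxamate from 186 ± 3.47 to 279 ± 9.24 CPM (log2 fold change 0.59, edgeR adjusted p = 2.23e-10) and stood at 115 ± 2.60 and 110.2 ± 2.46 CPM in resistant cells. The responses differed by -0.65 (edgeR adjusted p = 1.39e-08). HILPDA, an inhibitor of lipolysis, was at 46.1 ± 0.948 and 63.3 ± 0.967 CPM in parental cells after vehicle and oxamate, and fell in resistant cells from 43.4 ± 1.75 to 25.04 ± 0.242 CPM (-0.79, edgeR adjusted p = 4.99e-10). PLIN3 was at 389.7 ± 7.60 against 259 ± 4.75 CPM between the vehicle-treated lines (-0.59, edgeR adjusted p = 6.51e-12). G0S2, an inhibitor of the lipase ATGL, was low, at 0.356 ± 0.037 against 1.27 ± 0.138 CPM after vehicle (1.84, edgeR adjusted p = 4.58e-08), and so was PLIN4, at 0.195 ± 0.046 against 0.427 ± 0.053 CPM (1.15, edgeR adjusted p = 0.00236).

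Of 16 tested regulators of oxidation genes, 6 were higher and 6 lower in resistant cells after vehicle (median 0.06), and 10 higher and 3 lower under oxamate (median 0.16). Library size alone gave 13 higher and 1 lower (median 0.28), and 14 higher and 1 lower (median 0.48). NRIP1, a corepressor of nuclear receptors, was at 1.08 to 1.16 CPM in vehicle-treated parental and 14.3 to 15.1 CPM in vehicle-treated resistant libraries (log2 fold change 3.72, edgeR adjusted p = 1.42e-15). The receptor PPARA was at 21.0 ± 0.545 against 35.0 ± 1.06 CPM (0.74, edgeR adjusted p = 1.30e-10), and PPARG at 16.4 ± 0.499 against 8.77 ± 0.324 CPM (-0.91, edgeR adjusted p = 1.66e-10). PPARGC1A, the coactivator best known for inducing these genes, did not exceed 0.0190 CPM in any library, which is under the floor. After oxamate, 13 of the 16 fell and 1 rose in parental cells (median -0.19), where 30.4% of all genes fell and 28.3% rose, among them NRF1, from 15.5 ± 0.116 to 9.86 ± 0.048 CPM (-0.65, edgeR adjusted p = 1.91e-09), and PPRC1, from 60.5 ± 0.985 to 39.7 ± 1.88 CPM (-0.61, edgeR adjusted p = 1.91e-09), whereas 8 fell and 1 rose in resistant cells (median -0.10), where 12.5% of all genes fell and 9.01% rose. Library size alone gave 14 that fell and 0 that rose in parental cells, and 4 fell and 1 rose in resistant cells. The difference between the responses was called in 8 of 16 (44.2% of all genes), 7 of them more positive in resistant cells (13 of 13 with library size alone), including PPARGC1B (0.72, edgeR adjusted p = 0.00122).

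For malonyl-CoA and AMPK control, 6 of 11 tested genes were higher and 3 lower after vehicle (median 0.12), and 7 higher and 3 lower under oxamate (median 0.23). Library size alone gave 10 higher and 0 lower (median 0.34), and 10 higher and 1 lower (median 0.56). PRKAA2, a catalytic subunit of AMPK, was at 4.68 ± 0.496 against 8.40 ± 0.176 CPM after vehicle (log2 fold change 0.84, edgeR adjusted p = 3.83e-08). Malonyl-CoA decarboxylase, MLYCD, which removes the inhibitor of CPT1A, fell in parental cells after oxamate from 6.97 ± 0.345 to 4.53 ± 0.436 CPM (-0.63, edgeR adjusted p = 1.85e-06) and stood at 9.67 ± 0.484 CPM in oxamate-treated resistant cells (1.10, edgeR adjusted p = 6.55e-10, between the lines). PRKAB1 was at 12.3 ± 0.541 against 18.8 ± 0.721 CPM under oxamate (0.61, edgeR adjusted p = 2.15e-09).

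Most genes listed as PPAR targets outside beta-oxidation rose in parental cells after oxamate and did not rise in resistant cells. The list, which includes TXNIP and VLDLR, was drawn up by name, and the part of PPAR receptors in these changes was not tested. Of 7 tested, 5 rose and 1 fell in parental cells (median 0.46), 0 rose and 4 fell in resistant cells (median -0.10), and the difference between the responses was negative and called in all 7 (median -0.43, and in 6 of 7 with library size alone). Over all genes, 28.3% rose and 30.4% fell in parental cells, 9.01% rose and 12.5% fell in resistant cells, and 21.4% had a lower response in resistant cells. In the fit with library size alone 5 rose and 1 fell in parental cells, and 0 rose and 3 fell in resistant cells. ANGPTL4, a secreted inhibitor of lipoprotein lipase, rose from 182 ± 6.34 to 293 ± 5.00 CPM in parental cells (log2 fold change 0.68, edgeR adjusted p = 2.35e-11) and was at 72.5 ± 1.36 and 58.7 ± 0.318 CPM in resistant cells after vehicle and oxamate, a difference between the responses of -0.99 (edgeR adjusted p = 1.36e-10). Between the lines, 1 was higher and 4 lower after vehicle (median -0.69), and 1 higher and 6 lower under oxamate (median -1.21), against 3 higher and 4 lower (median -0.47) and 1 higher and 4 lower (median -0.88) with library size alone. CREB3L3 was at 58.7 ± 0.320 against 25.7 ± 0.497 CPM after vehicle (-1.19, edgeR adjusted p = 1.46e-14) and fell to 16.9 ± 0.595 CPM in resistant cells after oxamate. PDK4, a pyruvate dehydrogenase kinase and the exception among them, was at 5.12 ± 0.596 against 9.39 ± 0.398 CPM (0.89, edgeR adjusted p = 3.16e-08).

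The remaining lists changed as follows after oxamate, beside 28.3% of all genes higher and 30.4% lower in parental cells and 9.01% and 12.5% in resistant cells. In parental cells, 9 of the 19 tested genes in the list of other mitochondrial beta-oxidation enzymes rose and 3 fell (median 0.09, or 5 and 6 with library size alone). In resistant cells 3 rose and 1 fell (median 0.003, or 4 and 1). Uptake and activation genes had 5 higher and 3 lower of 14 in parental cells, with FABP3 past a 1.5-fold change from 0.165 ± 0.043 to 0.273 ± 0.043 CPM (log2 fold change 0.79, edgeR adjusted p = 0.0389, but 0.71 and edgeR adjusted p = 0.0591 with library size alone), and 1 higher and 1 lower in resistant cells, the former SLC27A3 (0.75, edgeR adjusted p = 0.00757). The part of nuclear-retained RNA in this SLC27A3 value was not tested. Carnitine genes had 2 higher and 1 lower of 8, and 0 higher and 1 lower. Peroxisomal genes had 7 higher and 3 lower of 16, with ABCD3 down (-0.61, edgeR adjusted p = 2.07e-09), and 1 higher and 0 lower. Lipid droplet genes had 5 higher and 2 lower of 13, and 1 higher and 2 lower. Malonyl-CoA and AMPK genes had 2 higher and 7 lower of 11, and 2 higher and 1 lower, ketone body genes 3 higher and 0 lower of 5, and 0 higher and 1 lower, electron transfer genes 1 higher and 2 lower of 6, and 0 higher and 1 lower, and fatty acid synthesis genes 2 higher and 3 lower of 7, and 1 higher and 1 lower. With library size alone, the balance in parental cells turned for the carnitine genes (0 higher and 3 lower), uptake and activation (2 higher and 3 lower) and the peroxisomal genes (4 higher and 8 lower). Lipid droplet genes were then at 4 higher and 2 lower, ketone body genes at 2 and 2, fatty acid synthesis genes at 2 and 4, and malonyl-CoA and AMPK and electron transfer genes at the same counts as before. In resistant cells, library size alone left carnitine and electron transfer genes with 0 called, lipid droplet genes with 2 higher and 2 lower, and the counts of uptake and activation, peroxisomal, malonyl-CoA and AMPK, ketone body and fatty acid synthesis genes as they were.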

How the data were processed

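RNA was sequenced in 12 MIAPaCa2 libraries, 3 in each of 4 groups taken from the labels. The authors selected polyadenylated RNA, made libraries with a NEBNext kit and, per the labels, used Bowtie2 2.1.0, RSEM 1.2.15 and the build hg38. They deposited expected counts per gene symbol without normalization, and the methods also name STAR and featureCounts. Of the deposited expected counts, 11.6% were not whole, and 6562 of 26475 symbols were at 0 in all libraries. Library totals were 46698729 to 114222169.

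The expected counts were rounded and fitted in R 4.3.3 with edgeR 4.0.16 over all 12 libraries: filterByExpr, TMM, and the quasi-likelihood test on 4 group means and their contrasts. SE is the log2 fold change divided by the root of F. CPM per kilobase used the union of coding-transcript exons in GENCODE release 29. Promoter windows came from RefSeq (GRCh38.p14, 250 bases before each start), and motifs were sought on both strands. The tests were tried on simulated counts. Alternatives were RLE factors, library size alone, no filter, a mean count of at least 25, unrounded counts, DESeq2 1.42.0, limma-voom (limma 3.58.1), a replicate block, only the samples compared, each replicate left out, and the threshold of an unadjusted p under 0.05 with a fold change over 1.5.

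The 9 genes and the 11 lists were chosen with earlier results of these data known. All 9 genes were described in every comparison. From each list, the 2 genes of smallest p in each direction with an adjusted p under 0.05 and a fold change over 1.5 could be named, and for CPT1A and HADHA the 3 genes of highest correlation. The 3 checks named with them were LDHA, markers of the line and of other cell types, and nuclear-retained RNA. DLG4, C1orf123 and C6orf201 were named because they overlap the 9 genes. No label says that libraries with the same replicate number are pairs, and they were not treated as such in the main fit. Of 18 same-number pairs, 3 had a correlation of deviations over 0.1 (range -0.074 to 0.245), which cannot settle whether they were paired. No 2 libraries were identical. Chromatin and metabolite measurements were not analysed here.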

Additional observations from a re-analysis of the deposited data

Results flagged for a closer look

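The response to oxamate differed between the lines (resistant minus parental, log2 scale), and this difference passed the test for 6 of the 9 genes, where 44.2% of all genes did. It was 0.51 for ACSL1, 0.11 for ACSL3, 0.39 for CPT2, -0.37 for ACADVL, -0.11 for HADHA and -0.17 for HADHB. ACSL1, CPT2 and ACADVL kept this call in all 20 alternatives, with ranges of 0.48 to 0.61, 0.37 to 0.49 and -0.40 to -0.27, and ACSL3 did too, at 0.10 to 0.22. HADHA and HADHB kept it in 19 of 20. CPT2 was the 1 gene of the 9 that was called in opposite directions in parental (-0.22) and resistant cells (0.17).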

How the results depend on the processing

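Over all alternatives, 883 of the genes' log2 fold changes kept direction and side of the threshold, 21 turned direction, 21 lost and 11 gained a call, and of 109 counts of the 9 genes called 104 stayed within 1.5 times. The threshold with a fold change over 1.5 left 0 of 9 genes in parental and 0 in resistant cells after oxamate, 1 between the vehicle-treated and 1 between the oxamate-treated lines, and 0 for the difference between responses, and 1440, 365, 3407, 5007 and 1237 of all genes. With library size alone, changes of direction after oxamate in parental cells were CPT1A to -0.0079 and HADHA to -0.0030, in resistant cells CPT1A to 0.0028, ACADVL to 0.016 and HADHB to 0.016, between the vehicle-treated lines ACSL1 to 0.19, ACSL3 to 0.048, ACADVL to 0.096 and ACADM to 0.19, between the oxamate-treated lines ACSL3 to 0.27 and ACADM to 0.28, and in the difference between responses CPT1A to 0.011 and ACADM to 0.088. That setting shifts all genes by construction. ACSL1 in resistant cells after oxamate was at -0.00094 with RLE factors, -0.0042 with no filter and -0.0010 with DESeq2, and the cause was not tested. With each library left out in turn, the 9 genes ranged from -0.13 to 0.19 in resistant cells after oxamate and from -0.40 to 0.53 in the difference between responses. Within these, ACSL1 in resistant cells ranged from -0.02 to 0.02 and the difference between responses from -0.02 to 0.06 for ECI2 and from -0.04 to 0.01 for ACADM, with directions turned. The count of all genes called in resistant cells after oxamate ranged from 1795 to 3889 against 3139, with 1850 without vehicle replicate 1, 1795 without vehicle replicate 2 and 1886 without oxamate replicate 3. A replicate block made ACADM in resistant cells called (edgeR adjusted p = 0.0347) and left ACSL3 between the oxamate-treated lines uncalled (edgeR adjusted p = 0.0501), and 6 of 12 libraries correlated best with one of their own number. Of the counts for the 11 lists, 1092 stayed within 1.5 times and 52 did not. The third libraries of oxamate-treated parental and vehicle-treated resistant cells, rich in nuclear-retained RNA, were among those left out. No gene of the 9 had fewer than 1002 counts in a library, whereas at this depth CD36 and PPARGC1A lay under the floor of 3 counts in parental libraries.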
